A study of Bos taurus with 40 samples.

Results

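The serpins are a family of proteins that share 1 fold, and its genes were found in the count tables by a symbol that starts with SERPIN. There were 34 such symbols among 13570 genes, and 32 of them had at least 1 read in at least 1 of 40 samples. SERPINB4 and SERPINB7 had no read in any sample, and 31 genes are described. The samples came from Korean cattle older than 22 months, 5 cows and 5 bulls, and from each animal liver, abdominal fat, longissimus dorsi muscle (a muscle of the back) and pituitary gland were sequenced after slaughter. The groups are therefore 1 sex in 1 tissue with 5 animals each, the labels name no treatment, and animals are numbered 1 to 5 within each sex.

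An inhibitory serpin offers a protease an exposed loop as bait. When the protease cuts the loop, the serpin changes shape and traps the protease in a covalent complex, so each molecule works once. In the plasma of mammals, serpins made mostly in the liver control clotting, fibrinolysis, complement and neutrophil elastase. Other members have lost the inhibitory function and serve as hormone carriers, as a collagen chaperone or as secreted growth regulators, and the clade B members act inside cells. Cattle carry an expanded set of SERPINA3 genes in place of the single human gene for alpha-1-antichymotrypsin.

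Expression was measured as reads counted on each gene and is given as CPM (a gene's reads relative to the reads of its library), scaled with TMM factors (trimmed mean of M values) over all 40 samples. CPM is not divided by gene length, so levels are compared between samples and tissues of 1 gene and not between genes. Reads on genes per sample ranged from 5173092 to 19165864, and 3 reads, taken as the floor of a sample, correspond to 0.132 to 0.793 CPM. Values under the floor of their sample rest on fewer than 3 reads and are given as counted. The liver, muscle and pituitary gland marker lists and the 3 measured fat markers (PLIN1, LEP and FABP4) were highest in the tissue of their label. Summed, the liver markers ALB, APOA1, TTR and FGB had 109800 to 277100 CPM in liver against at most 467 CPM in any other sample. The liver library labelled bull 3 went against its label. It had 1401 CPM of XIST, the RNA of the inactive X chromosome, against at most 0.936 CPM in the livers of the other bulls, and 0 reads on the Y-linked genes DDX3Y, USP9Y and ZFY, which summed to at least 69.6 CPM in the livers of the other bulls. It was also nearest to the liver of cow 4, with a chi-square of counts of 15.0 per gene against 43.9 for the next liver pair. With 1 library per animal and tissue, the chi-square that repeat preparations of 1 liver would give is not known. Whether the libraries came from different livers was therefore not tested, and both were kept under their labels. The fat library labelled bull 5 had 2.16 CPM on these genes against at least 39.98 CPM in the other bulls, while its 1.39 CPM of XIST was far below the 316 to 981 CPM of the cows, as its label says. Without these libraries, the mean level of the serpins with at least 10 CPM changed by -5.93 to 8.01% in liver and by -16.2 to 4.87% in fat. In these bulk samples, a change in the number of cells of a type and a change in RNA per cell cannot be told apart.

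Serpins took the largest share of the transcriptome in liver. Liver devoted 1.78 ± 0.249% of its reads to the 31 genes, fat 0.310 ± 0.0871%, pituitary gland 0.0907 ± 0.0241% and muscle 0.0487 ± 0.0118% (SD, n = 10 each). The lowest liver sample (1.31%) was above the highest sample of any other tissue (0.459%, in fat). To find where each gene was highest, the tissues were compared in pairs with edgeR's quasi-likelihood test, and a gene was said to lead in a tissue when it was higher there than in each of the other tissues at an adjusted p under 0.05. Of the 31 serpins, 18 led in liver, 2 in fat, 3 in pituitary gland and 0 in muscle, and 8 led in no tissue. Among all 13148 genes tested, liver led for 13.6%, fat for 11.4%, muscle for 13% and pituitary gland for 15.5%, and 46.6% led in no tissue. For 21 of the 23 leading serpins, the lowest sample of the leading tissue was above the highest sample of all the others, which held for 36.1% of the 7021 genes with a leading tissue. Without the liver library of bull 3 and without the fat library of bull 5, in turn, 18 serpins led in liver.

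**Figure D1:**
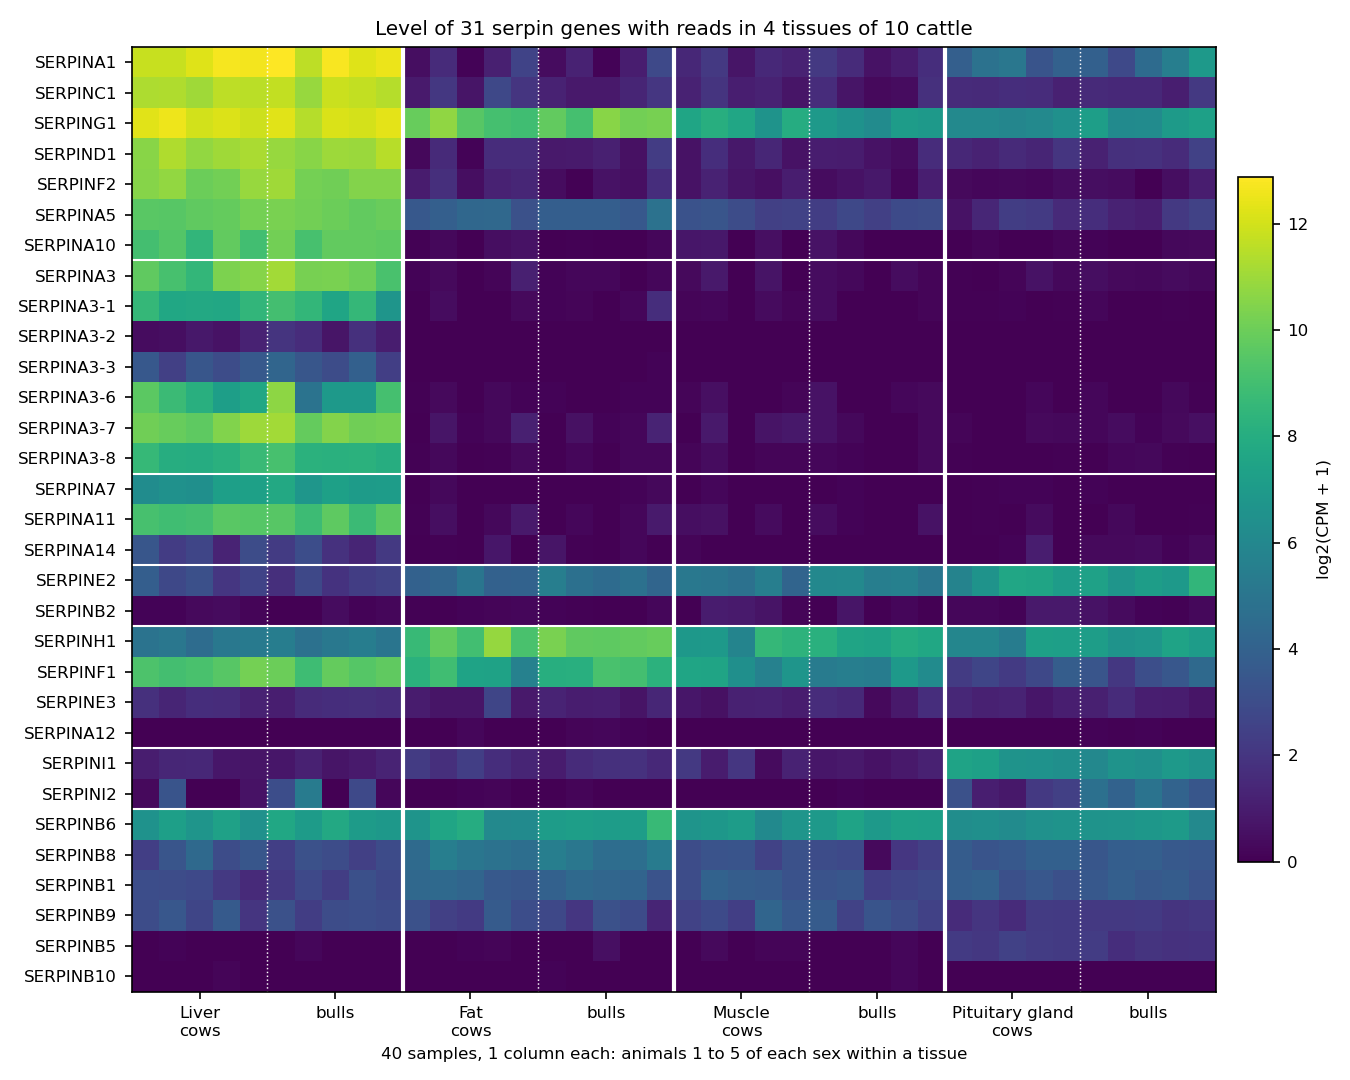
Each column is 1 of the 40 samples and each row 1 of 31 serpin genes with reads, with colour giving log2(CPM + 1); thick white lines separate tissues, dotted lines separate cows from bulls and thin lines separate groups of genes by role. The plasma inhibitors and SERPINA3 genes at the top are bright in the 10 liver columns, SERPINH1 in fat, and SERPINI1 and SERPINE2 in pituitary gland.

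The 7 plasma protease inhibitors all led in liver. SERPINA1, which encodes alpha-1-antitrypsin, the main plasma inhibitor of neutrophil elastase, had 3091 to 7520 CPM in liver (median 5307, n = 10). In pituitary gland it had 6.25 to 118 CPM (median 18.4), in muscle 0.529 to 3.47 CPM and in fat 0.0819 to 6.26 CPM. The liver mean was 175-fold that of pituitary gland (edgeR adjusted p = 1.59e-14), and no liver sample overlapped with another tissue. The pituitary gland in turn exceeded muscle by 3.98 on the log2 scale (edgeR adjusted p = 2.20e-08), while muscle and fat did not differ beyond their spread (adjusted p = 0.964). The highest pituitary value, 118 CPM, belonged to bull 5, and the next highest was 44.0 CPM in bull 4. The summed liver markers in the pituitary samples were 30.0 to 71.9 CPM, with 71.9 CPM in bull 5, and their part in the SERPINA1 level was not tested. In the same pituitary samples the mean was 1.94 CPM for SERPINC1 and at most 0.235 CPM for any SERPINA3 gene.

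SERPINC1, which encodes antithrombin, the plasma inhibitor of thrombin and factor Xa, had 1892 to 3619 CPM in liver (median 2871). Its means in the other tissues were 1.32 to 2.13 CPM, and these 3 tissues could not be separated in neighbouring order (adjusted p = 0.773 and 0.188). SERPIND1, heparin cofactor II, had 1512 to 2901 CPM in liver (median 1994) and at most 4.57 CPM in any other sample. SERPINF2, which encodes alpha-2-antiplasmin, the fast inhibitor of plasmin, had 1017 to 2115 CPM in liver (median 1448) and at most 2.34 CPM elsewhere. SERPINA10, the protein Z dependent inhibitor of factor Xa, had 350 to 1142 CPM in liver (median 744) and at most 0.778 CPM elsewhere. In these 4 genes the liver samples lay above every sample of the other tissues by a wide margin, with a smallest log2 difference between liver and the next tissue of 9.87, for SERPIND1 (edgeR adjusted p = 2.82e-22).

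SERPINA5 and SERPING1 differed between the tissues outside the liver at every step of the order. SERPINA5, the protein C inhibitor, had 728 to 1266 CPM in liver (median 935), 8.11 to 28.1 CPM in fat (median 13.4), 3.995 to 9.60 CPM in muscle (median 6.17) and 0.568 to 4.76 CPM in pituitary gland (median 2.09). Every step of this order passed the test, with fat above muscle by 1.26 (edgeR adjusted p = 3.89e-05) and muscle above pituitary gland by 1.35 on the log2 scale (adjusted p = 1.79e-05). SERPING1 encodes the C1 inhibitor, which controls the first complement proteases and plasma kallikrein. It had 2762 to 5928 CPM in liver (median 4583), 479 to 1696 CPM in fat (median 906), 73.0 to 266 CPM in muscle (median 130) and 58.8 to 161 CPM in pituitary gland (median 72.4). The liver mean was 4.70-fold the fat mean (edgeR adjusted p = 1.36e-09), fat exceeded muscle by 2.64 on the log2 scale (adjusted p = 4.64e-11), and muscle exceeded pituitary gland by 0.73 (adjusted p = 0.0142), although the samples of these last tissues overlapped.

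All 7 SERPINA3 genes led in liver, and SERPINA3-6 had the widest range between animals among them. SERPINA3 had 365 to 2163 CPM in liver (median 1128) and SERPINA3-7 had 833 to 2184 CPM (median 1126). SERPINA3-8 had 254 to 562 CPM (median 295) and SERPINA3-1 had 105.5 to 524 CPM (median 289). SERPINA3-3 (4.15 to 17.6 CPM, median 9.85) and SERPINA3-2 (0.323 to 2.86 CPM, median 0.903) were at the low end. SERPINA3-2 had no read in any sample of fat, muscle or pituitary gland, and its liver mean was at least 59.3-fold higher than in fat, at least 30.7-fold higher than in muscle and at least 65.8-fold higher than in pituitary gland, against a floor of 3 reads over the 10 libraries of a tissue. For SERPINA3-3, 1 read was counted in fat and none in muscle or pituitary gland. The other 5 SERPINA3 genes had at most 2.16 CPM in any sample outside the liver, a value of SERPINA3-1 in the fat library of bull 5, which also had the highest liver marker sum among the fat samples (467 CPM). The part of the liver markers in that value was not tested.

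SERPINA3-6 had 806, 434, 280, 149 and 202 CPM in the livers of cows 1 to 5 and 1640, 29.4, 121, 123 and 545 CPM in those of bulls 1 to 5. The highest liver, bull 1, was thus 55.9-fold the lowest, bull 2, whereas the ratio of highest to lowest was 2.21 for SERPINA3-8, 2.62 for SERPINA3-7, 4.24 for SERPINA3-3, 4.97 for SERPINA3-1, 5.92 for SERPINA3 and 8.85 for SERPINA3-2. The ratio of SERPINA3-2 rests on 4 reads in cow 1 and 20 reads in bull 1, so its counting error is large. Among the 17 serpins with a liver mean of at least 10 CPM, the median ratio was 2.40, and the next widest after SERPINA3-6 was SERPINA3. Bull 2 had the lowest SERPINA3-6 while its SERPINA3 (1194 CPM) and SERPINA3-1 (364 CPM) were above the medians of these genes. Bull 1 was highest in all 7 SERPINA3 genes. In the annotation of the ARS-UCD2.0 assembly, SERPINA3-8, SERPINA3, SERPINA3-7 and SERPINA3-3 are neighbours on chromosome 21 with no other protein-coding gene between them, near SERPINA5, SERPINA12, SERPINA14, SERPINA11 and SERPINA1. Of the 10 members matched to that chromosome, 9 led in liver. Reads that fit more than 1 place were not counted, so the levels of near-identical SERPINA3 copies are uncertain.

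**Figure D2:**
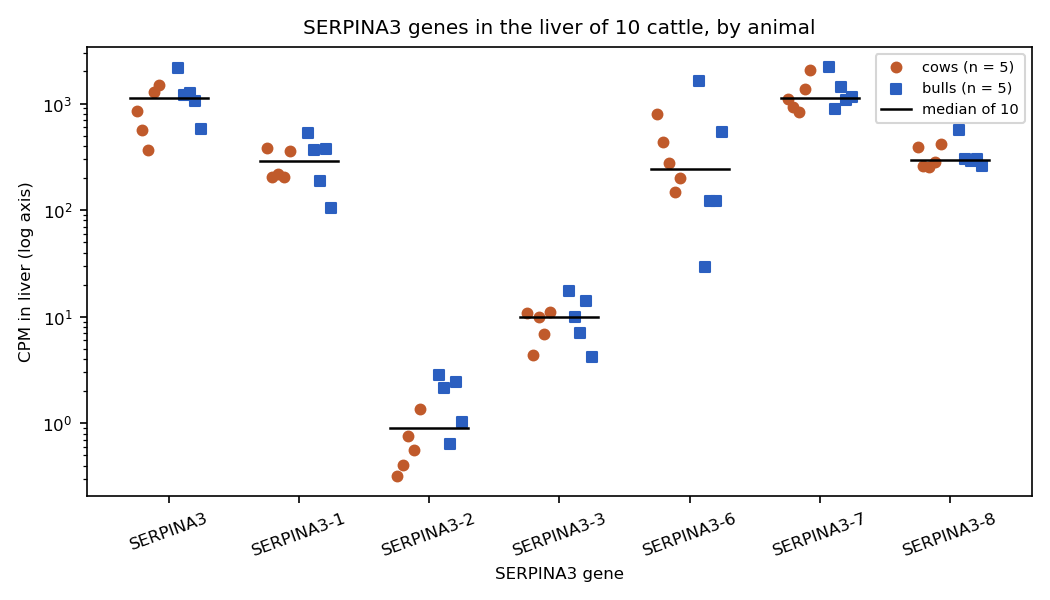
Each point is the liver CPM of 1 animal on a log axis, with cows as circles, bulls as squares and the median of the 10 animals as a bar, for each of the 7 SERPINA3 genes. SERPINA3-6 spreads from 29.4 to 1640 CPM, while SERPINA3-8 and SERPINA3-7 stay within 2.21-fold and 2.62-fold ranges.

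The remaining clade A members were liver genes too, with 1 exception. SERPINA7, which encodes thyroxine-binding globulin, a carrier of thyroid hormone in plasma, had 74.6 to 218 CPM in liver (median 136) and at most 0.232 CPM elsewhere. SERPINA11, whose role is not well known, had 441 to 808 CPM in liver (median 646) and at most 0.927 CPM elsewhere. SERPINA14, known as uterine milk protein in ruminants, had a liver mean of 4.59 ± 2.74 CPM (SD, n = 10) and 0.0138 to 0.224 CPM on average in the other tissues. SERPINA12, the adipokine vaspin, had no read in any liver or muscle sample. In fat, where it is known as a secreted product, 7 reads were counted over the 10 libraries, at most 0.183 CPM in a sample, so that no level could be given at this depth.

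SERPINF1 and SERPINH1 are members without inhibitory function that act outside the plasma cascades. SERPINF1, pigment epithelium-derived factor, a secreted inhibitor of blood vessel growth, had 474 to 1146 CPM in liver (median 724), 49.7 to 587 CPM in fat (median 287), 40.5 to 191 CPM in muscle (median 79.0) and 3.23 to 19.8 CPM in pituitary gland (median 6.71). The liver mean was 2.41-fold the fat mean (edgeR adjusted p = 0.00116), but the 10 samples of the 2 tissues overlapped, and with library sizes alone in place of TMM factors the difference no longer passed (adjusted p = 0.187). SERPINH1 encodes HSP47, the chaperone that collagen chains need in the endoplasmic reticulum. It had 415 to 1862 CPM in fat (median 867), 55.5 to 385 CPM in muscle (median 191), 41.7 to 177 CPM in pituitary gland (median 122) and 22.5 to 43.2 CPM in liver (median 33.6). Fat was 4.32-fold muscle (edgeR adjusted p = 1.75e-08), and every further step of the order passed as well (adjusted p = 0.00382 and 5.97e-07). The collagen genes COL1A1, COL1A2 and COL3A1 led in fat too, with 4833, 3946 and 9648 CPM on average there against 47.2, 43.6 and 209 CPM in liver. The summed fibroblast markers (COL1A1, COL3A1, DCN and LUM) were 7657 to 36840 CPM in fat and 343 to 578 CPM in liver, and their part in the SERPINH1 order was not tested. SERPINE3 had 1.203 to 1.95 CPM on average in the 4 tissues and led in none.

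SERPINE2 encodes protease nexin-1, an inhibitor of thrombin and of the plasminogen activators that is known from nervous tissue. It had 53.7 to 359 CPM in pituitary gland (median 140), 16.8 to 66.3 CPM in muscle (median 39.8), 15.0 to 45.1 CPM in fat (median 19.5) and 2.29 to 13.7 CPM in liver (median 4.92). The pituitary mean was 3.82-fold the muscle mean (edgeR adjusted p = 1.10e-07), and 1 pituitary sample, that of cow 1, lay within the muscle range. PLAT and PLAU, the genes of the activators, and PLAUR, the gene of the urokinase receptor, led in fat, with fat means of 104, 41.0 and 23.8 CPM. SERPINB2, PAI-2, had at most 0.951 CPM in any sample and led in no tissue.

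The clade I members are SERPINI1 and SERPINI2. SERPINI1, neuroserpin, an inhibitor of tissue-type plasminogen activator in neurons and endocrine cells, had 62.9 to 175 CPM in pituitary gland (median 95.6). The highest value in any other sample was 4.26 CPM, in the fat of cow 3, and the pituitary mean was 44.5-fold that of fat (edgeR adjusted p = 2.16e-20). SERPINI2, known as pancpin from the pancreas, had a mean of 11.5 ± 10.1 CPM in pituitary gland (SD, n = 10) and 6.28 ± 12.15 CPM in liver, and these tissues could not be separated (edgeR adjusted p = 0.220). With the animal as a block SERPINI2 did lead in pituitary gland. In liver the values fell far apart, with 39.4 CPM in bull 2, 9.09 CPM in cow 2, 7.15 CPM in bull 1, 6.24 CPM in bull 4, at most 0.547 CPM in the other animals, and no read in cow 3, cow 4 and bull 3. Fat had 5 reads on SERPINI2 over its 10 libraries and muscle 1 read. In the ARS-UCD2.0 annotation SERPINI1 and SERPINI2 lie on chromosome 1 with 2 protein-coding genes between them.

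Of the 6 measured intracellular clade B members, 4 led in no tissue, as did 46.6% of all genes. SERPINB6, which inhibits cathepsin G inside cells, had 66.8 to 403 CPM in fat (median 140), 89.6 to 214.5 CPM in liver (median 133), 67.1 to 175 CPM in muscle (median 122.5) and 65.8 to 130.4 CPM in pituitary gland (median 94.2), and no step between neighbours in this order passed the test (edgeR adjusted p = 0.0873 to 0.517). Pituitary gland was below fat by 0.80 and below liver by 0.58 on the log2 scale (edgeR adjusted p = 0.00118 and 0.0165). SERPINB1, an inhibitor of neutrophil proteases, had 8.81 to 20.4 CPM in fat (median 17.2), 7.86 to 15.1 CPM in pituitary gland (median 11.03), 4.23 to 15.6 CPM in muscle (median 8.62) and 1.91 to 7.88 CPM in liver (median 6). Fat exceeded pituitary gland by 0.49 on the log2 scale without passing (edgeR adjusted p = 0.0579). With the animal in the model as a block, SERPINB1 did lead in fat. SERPINB8, an inhibitor of furin, led in fat with 21.1 to 45.1 CPM (median 30.2) against at most 20.5 CPM in any other sample (2.65-fold the pituitary mean, edgeR adjusted p = 1.09e-05).

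SERPINB9, the inhibitor of granzyme B, had means of 3.07 to 8.06 CPM and led in no tissue, with pituitary gland below fat by 0.97 on the log2 scale (edgeR adjusted p = 0.00288). SERPINB5, maspin, an epithelial member, was low but led in pituitary gland, with 2.17 to 4.57 CPM there (median 3.42) and at most 0.458 CPM in any other sample (edgeR adjusted p = 1.35e-10). SERPINB10 had 3 reads in all, 1 each in liver, fat and muscle. The leukocyte markers PTPRC, CD3E, CD68, CD163 and CD14 summed to 777 to 1811 CPM in liver, 280 to 1117 CPM in fat, 42.6 to 251 CPM in muscle and 37.9 to 169 CPM in pituitary gland, and their part in the clade B levels was not tested.

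**Figure D3:**
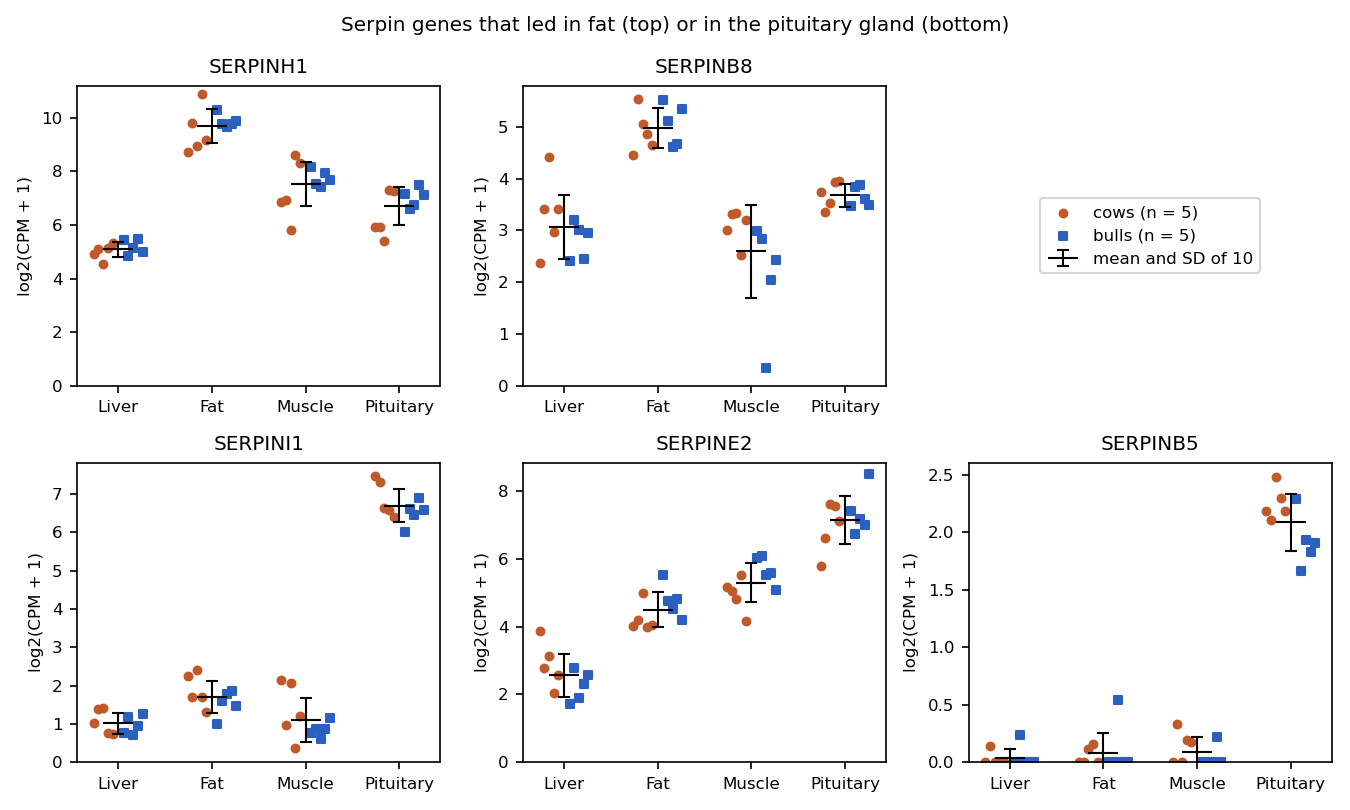
Each panel shows 1 serpin gene that led in fat (SERPINH1 and SERPINB8) or in pituitary gland (SERPINI1, SERPINE2 and SERPINB5), as log2(CPM + 1) of 10 animals per tissue, cows as circles and bulls as squares, with the mean and SD. SERPINI1 and SERPINB5 show no overlap between pituitary gland and the other tissues, while SERPINE2 in pituitary gland (53.7 to 359 CPM) overlaps with muscle (16.8 to 66.3 CPM).

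The partners of the serpins were described by the same rule. Of 31 listed target proteases, cofactors, receptors and clients, 27 were measured, and 16 led in liver, 7 in fat, 0 in muscle and pituitary gland, and 4 in no tissue. The liver genes included the clotting proteases F2, F7, F9, F10, F11 and F12, with means of 109 to 2671 CPM in liver and at most 5.18 CPM elsewhere, and PLG, the plasmin precursor, with 7439 CPM in liver. C1R and C1S, the complement proteases that SERPING1 inhibits, had 2886 and 3101 CPM in liver and 470 and 457 CPM in fat, the same order of liver over fat as SERPING1. AGT, angiotensinogen, a serpin by fold without a SERPIN symbol, had 1317 CPM in liver, 49.99 CPM in fat, 20.25 CPM in muscle and 1.55 CPM in pituitary gland. HTRA1, a secreted protease, led in no tissue, and ELANE and GZMB, the genes of neutrophil elastase and granzyme B, had at most 0.107 CPM on average in any tissue.

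The study asked which genes differ between the sexes, and of the serpins 1 did in 1 tissue. Sex was tested in each tissue with the likelihood ratio test of edgeR on 5 cows and 5 bulls (model M1), and log2 fold changes are bulls over cows. At an adjusted p of 0.05, the pituitary gland gave 1 of the 31 serpins, and liver, fat and muscle gave 0 each. The share of all tested genes that passed was 0.175% for liver, 0.114% for fat, 0.517% for muscle and 0.745% for pituitary gland. The liver values include the library of bull 3, which went against its label. Without it 0 serpins passed in liver, and 61 of all genes did, against 23 with it. An unadjusted p under 0.05 was reached by 1 serpin for liver, 1 for fat, 4 for muscle and 2 for pituitary gland with this test, and by 1, 0, 4 and 2 with edgeR's quasi-likelihood test. With the first test these counts are 3.23%, 3.23%, 12.9% and 6.45% of the serpins, and 7.45%, 6.88%, 11% and 9.27% of all genes reached such a p. DESeq2 called 0 serpins in liver, fat and muscle and 1 in pituitary gland. The standard errors limit what could be seen: for serpins with a mean of at least 1 CPM, the log2 fold change had a median standard error of 0.35 (liver), 0.47 (fat), 0.43 (muscle) and 0.36 (pituitary gland).

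SERPINI2 in pituitary gland was the serpin with a sex difference. It had 8.14, 1.12, 0.797, 3.43 and 4.51 CPM in cows 1 to 5 and 26.4, 15.6, 29.2, 16.2 and 9.91 CPM in bulls 1 to 5. All bulls were above all cows, which was the case in either direction for 1.34% of all genes in pituitary gland. The means were 3.6 ± 2.98 CPM in cows and 19.5 ± 8.04 CPM in bulls (SD, n = 5), a log2 fold change of 2.43 with a standard error of 0.50 (edgeR likelihood ratio test, adjusted p = 0.00231). Of all genes, 0.555% were called higher in bulls in this tissue. With 1 animal left out at a time, the log2 fold change was 2.18 to 2.98 and the adjusted p at most 0.0159, and DESeq2 gave an adjusted p of 0.000589. With edgeR's quasi-likelihood test the call was lost (adjusted p = 0.138, unadjusted p = 0.000284).

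The 3 measured pancreatic acinar markers (CPA1, CPB1 and CELA1, with 1 to 3 of them detected per sample) summed to 1.31 to 1.87 CPM in the pituitary glands of cows and 1.71 to 5.48 CPM in those of bulls. Most of each sum was CELA1, with 1.30 to 1.79 CPM in cows, 1.66 to 2.12 CPM in bulls 1 to 4 and 5.09 CPM in bull 5. CPA1 had at most 0.391 CPM and CPB1 at most 0.132 CPM in these samples. The 5 pituitary hormone markers summed to 81580 to 265300 CPM in cows and 143600 to 284500 CPM in bulls, with PRL as the largest part. CGA alone had 1339 to 3053 CPM in cows, 6657 to 14540 CPM in bulls 1 to 4 and 1465 CPM in bull 5. The ranges of GH1, PRL, POMC and TSHB overlapped between the sexes. The part of either marker list, or of CGA alone, in the SERPINI2 difference was not tested. In liver, where SERPINI2 was detected in 7 of 10 animals, bulls had a mean of 10.6 ± 16.4 CPM and cows 1.98 ± 3.98 CPM (n = 5), with a log2 fold change of 2.50 that did not pass (edgeR adjusted p = 0.790). This value rested on single livers, with 0.81 without bull 2, 5.67 without cow 2 and 2.82 without the doubted library of bull 3. The neighbouring gene SERPINI1 had 122 ± 41.7 CPM in the pituitary glands of cows and 91.7 ± 19.97 CPM in those of bulls (log2 fold change -0.40, edgeR adjusted p = 0.620).

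SERPING1 came next in both muscle and pituitary gland, with opposite signs, and passed in neither. In muscle it had 188, 266, 194, 97.5 and 248 CPM in cows 1 to 5 and 122, 93.2, 73.0, 137 and 119 CPM in bulls 1 to 5. The log2 fold change was -0.86 with a standard error of 0.31 (edgeR adjusted p = 0.206), and cow 4 lay within the range of the bulls. Without cow 4 the log2 fold change was -1.03 and passed (adjusted p = 0.00778), in a fit that called 553 of all genes, against 68 with all animals. The summed leukocyte markers in muscle were 177 to 251 CPM in cows and 42.6 to 183 CPM in bulls, and their part in this difference was not tested. In pituitary gland it had 66.8, 65.1, 58.8, 66.3 and 86.8 CPM in cows and 150.1, 71.3, 73.4, 129 and 161 CPM in bulls, so that cow 5 was the only cow above a bull. The log2 fold change there was 0.76 with a standard error of 0.25 (edgeR adjusted p = 0.130), and without bull 2 it was 0.91 and passed (adjusted p = 0.0236). The fit without bull 2 called 98 of all genes, as did the fit with all animals. The summed fibroblast markers in pituitary gland were 269 to 385 CPM in cows and 369 to 981 CPM in bulls, with 981 CPM in bull 5. Of these markers, COL1A1 had 48.5 to 88.4 CPM in cows and 91.7 to 389 CPM in bulls. COL3A1, DCN and LUM overlapped between the sexes, with LUM at 31.1 to 73.0 CPM in cows and 52.6 to 71.9 CPM in bulls. The part of the fibroblast markers in the SERPING1 difference was not tested. The interaction of sex and tissue for SERPING1 had an adjusted p of 0.175 (edgeR likelihood ratio test, unadjusted p = 0.00275).

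**Figure D4:**
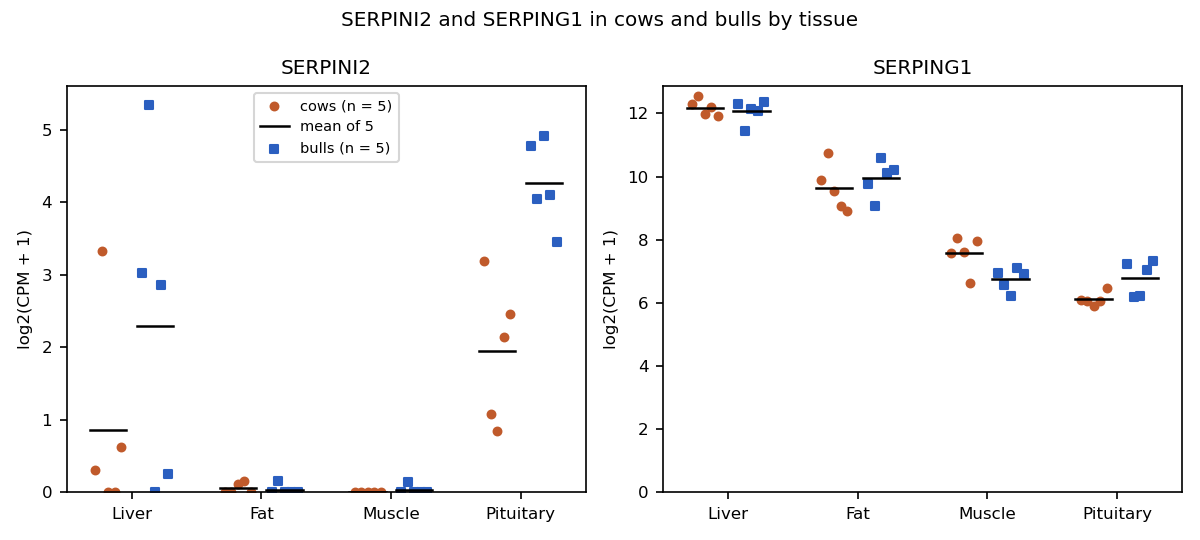
Each point is 1 animal as log2(CPM + 1), cows as circles and bulls as squares, with the mean of 5 as a bar, in 4 tissues. In pituitary gland the 5 bulls lie above the 5 cows for SERPINI2 (9.91 to 29.2 against 0.797 to 8.14 CPM), and SERPING1 has lower bull means in muscle and higher bull means in pituitary gland, with overlap in both.

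The other serpins with the smallest p-values in each tissue did not pass. In liver these were SERPINA3-2 (0.686 ± 0.417 CPM in cows and 1.82 ± 0.941 CPM in bulls, edgeR adjusted p = 0.397), SERPINE2 (7.06 ± 4.06 and 3.96 ± 1.498 CPM, adjusted p = 0.688) and SERPINA10 (592 ± 205 and 854 ± 211 CPM, adjusted p = 0.786). Fat gave SERPINA10 (21 reads in all, adjusted p = 0.687), SERPINA3-1 (41 reads in all, adjusted p = 0.813) and SERPINF1 (234 ± 163 and 393 ± 151 CPM, adjusted p = 0.821). The bull mean of SERPINA3-1 in fat rested on the library of bull 5, without which its log2 fold change turned from 2.10 to -0.20. In muscle SERPINE2 was higher in bulls (31.1 ± 10.2 and 50.8 ± 13.9 CPM, log2 fold change 0.71, adjusted p = 0.345) and SERPINF1 lower (123 ± 62.3 and 64.8 ± 35.9 CPM, log2 fold change -0.92, adjusted p = 0.371), neither past the threshold. In pituitary gland SERPINA12 had 3 reads in all, all in bulls.

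Cows and bulls overlapped for all 31 serpins in liver, fat and muscle, where 0.548%, 1.29% and 1.65% of all genes did not overlap. Over the serpins with a mean of at least 1 CPM, the median log2 fold change was 0.13 in liver (27 genes), 0.12 in fat (15 genes), -0.24 in muscle (14 genes) and 0.23 in pituitary gland (16 genes). Over all genes with such a mean, the medians were -0.0014, -0.04, -0.04 and 0.0085. Bulls had the higher fitted level in 77.8%, 60%, 35.7% and 75% of these serpins, in the same order of tissues, against 49.9%, 46.6%, 46.4% and 51.2% of all such genes, and serpins of 1 tissue are not independent of each other.

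Sex over the 4 tissues together was tested in a model with sex and tissue on all 40 samples (model M2). It called 0 of the 31 serpins, against 1.69% of all genes, and 4 serpins (12.9%, against 16.7% of all genes) had an unadjusted p under 0.05 (4 also with edgeR's quasi-likelihood test, which called 0, as did DESeq2). The smallest p belonged to SERPINI1 (unadjusted p = 0.00657 by edgeR), with a log2 fold change of -0.52 that did not pass. With library sizes alone SERPINI1 passed (edgeR adjusted p = 0.0336), and with the animal as a block it did not (limma voom, adjusted p = 0.538). Library sizes alone called 717 of all genes in M2 and the block 8, against 222 in the main fit. The interaction of sex and tissue called 0 serpins, against 0.335% of all genes, with 4 (12.9%, against 8.58% of all genes) at an unadjusted p under 0.05 (4 with the quasi-likelihood test, which called 0, as did DESeq2). Leaving out cow 4 or cow 5 with all their samples gave 2 calls in M2 each (SERPINH1 and SERPINI1, and SERPINA3-2 and SERPINI1), and leaving out cow 4 gave 1 call in the interaction (SERPINA14). Of all 13148 genes, M2 called 686 without cow 4 and 714 without cow 5, against 222 with all animals. The interaction called 197 of all genes without cow 4, against 44 with all animals.

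For sex, 0.175%, 0.114%, 0.517% and 0.745% of all genes passed in liver, fat, muscle and pituitary gland. Of the 27 measured partner genes, 0 passed in liver, fat and muscle and 1 in pituitary gland. That gene was COL1A1, a client of the chaperone SERPINH1, with a log2 fold change of 1.39 (edgeR likelihood ratio test, adjusted p = 0.0345). It had 389 CPM in bull 5, 91.7 to 153 CPM in the other bulls and 48.5 to 88.4 CPM in the cows. The likelihood ratio test called 98 of all genes in this tissue and the quasi-likelihood test 12, and the COL1A1 value is from the first alone. SERPINH1 in pituitary gland had 94.0 ± 55.6 CPM in cows and 132 ± 31.9 CPM in bulls, with a log2 fold change of 0.48 that did not pass (adjusted p = 0.690). Over the 4 tissues, 2 partner genes were called in model M2, against 1.69% of all genes. MASP2, a complement protease that SERPING1 inhibits, was lower in bulls (log2 fold change -0.60, edgeR adjusted p = 0.00704). CTSL1, a cathepsin gene with means of only 0.23 to 2.14 CPM, was lower too (-1.07, edgeR adjusted p = 0.0325). Model M2 takes the 4 samples of an animal as independent. It called 222 of all genes, against 8 with the animal as a block, and these values come from M2 alone. In the interaction, where 0.335% of all genes passed, HTRA1 was called (edgeR likelihood ratio test, adjusted p = 0.00669). With edgeR's quasi-likelihood test 0 of all genes were called in the interaction, so this call was lost.

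For SERPINH1 the same animals were high or low in more than 1 tissue. In muscle, SERPINH1 had 114, 121, 55.5, 385 and 319 CPM in cows 1 to 5 and 288, 181.5, 171, 244 and 201 CPM in bulls 1 to 5. In pituitary gland it had 59.7, 59.9, 41.7, 157 and 152 CPM in the cows and 141, 96.5, 106, 177 and 138.5 CPM in the bulls. Cows 1, 2 and 3 were the lowest animals in both tissues, and cow 3 was the lowest in liver too (22.5 CPM). Over all genes, cows 1 and 2 were the nearest pair of pituitary libraries (chi-square of 23.2 per gene against a median of 110 over all pairs) and cows 1 and 3 the nearest pair of muscle libraries (44.4 against 170), and the part of this nearness in the SERPINH1 pattern was not tested. This pattern was noticed in the values, and it was then measured for every serpin with a mean of at least 10 CPM in both of 2 tissues, which gave 28 relations over 10 animals on log2(CPM + 1). For SERPINH1 in muscle and pituitary gland, Pearson's r was 0.937 and Spearman's rho 0.915 (permutation p = 8e-05 and 0.00052, adjusted over the 28 relations 0.00224 and 0.0146).

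Without the animals farthest from the median in muscle, cow 3 and cow 4, r was 0.918, and it was 0.987 within cows and 0.734 within bulls. Over the 7 animals other than cows 1, 2 and 3, r was 0.719 (exact permutation p = 0.0766), so part of the relation rests on those 3 cows. The summed fibroblast markers were 2270 to 8235 CPM in the 10 muscles and 269 to 981 CPM in the 10 pituitary glands, and their part in this relation was not tested.

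In liver, SERPINH1 had 29.4, 32.97, 22.5, 34.3 and 38.8 CPM in the cows and 42.9, 27.4, 34.3, 43.2 and 30.8 CPM in the bulls. The relation between liver and pituitary gland did not pass (r = 0.781 and rho = 0.818, permutation p = 0.0072 and 0.00551, adjusted 0.0781 and 0.0514), and without cow 3 and bull 4 r was 0.524. Of the 28 relations, 19 had a positive r, the median r was 0.172, and SERPINH1 in muscle and pituitary gland was the 1 that passed an adjusted p of 0.05. The relation of SERPINB1 between fat and pituitary gland (r = 0.723, rho = 0.830) came next by Spearman's rho and did not pass (permutation, adjusted p = 0.117 for r and 0.0514 for rho).

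**Figure D5:**
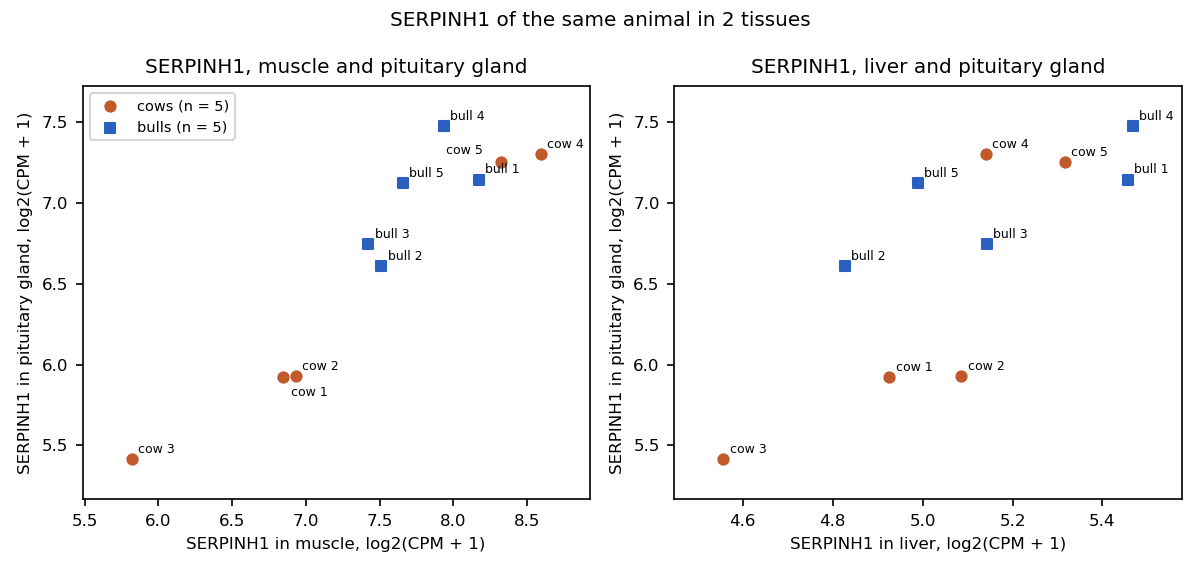
Each point is 1 animal, with its SERPINH1 level as log2(CPM + 1) in muscle (left) or liver (right) on the x axis and in pituitary gland on the y axis; cows are circles and bulls squares. Cows 1, 2 and 3 lie lowest on the y axis (41.7 to 59.9 CPM), and in muscle they are also the lowest on the x axis.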

How the data were processed

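RNA of 4 tissues from 5 cows and 5 bulls of Korean cattle was sequenced, with 1 library per animal and tissue. Sex and tissue came from the labels and the animals from the numbers that the sample titles share across tissues. The authors ran Trimmomatic on the reads, aligned what was left to the bosTau7 assembly with Bowtie2 and Tophat2, and counted uniquely aligned reads per gene symbol with HTSeq. They deposited raw read counts without normalization, and strandedness is not given in the sources used here. A line without a gene name, with 0.114 to 2.69% of the reads per sample, was dropped.

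Of 13570 genes, the 13148 with any read in the 40 samples were tested. CPM values use TMM factors over all 40 samples (0.518 to 1.71), and edgeR 4.0.16 in R 4.3.3 was used for all main tests with Benjamini-Hochberg adjustment over 13148 genes. Sex was tested by the likelihood ratio test of glmFit in each tissue (M1), with tissue as a covariate (M2) and as an interaction, with a prior count of 0.125. Tissues were compared with the quasi-likelihood test in 6 pairwise contrasts of a model with tissue and sex. The 4 samples of an animal were taken as independent, as in the study, and a block for the animal was run beside it (limma 3.58.1 voom with duplicateCorrelation for sex, the animal in the edgeR model for tissues). DESeq2 1.42.0, other scalings, filterByExpr and leaving out animals were the further alternatives. The tests were first tested on simulated data. Correlations use 100000 permutations.

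The family, its role groups and the partner and marker lists were chosen with earlier results of these data known. A result on 1 member is not reported here, and counts over the members leave it out. For the others, sample values are given for those with a mean of at least 10 CPM in a tissue and for SERPINA3 genes with at least 1 CPM, and for sex the called members and the 3 smallest p-values per tissue are named, beside genes that a left-out animal or another scaling brought past the threshold. Of the partner list, LRP1, PRTN3, CTSG and CMA1 were not analysed, nor were the markers ADIPOQ, WT1 and PNLIP. RefSeq symbols of ARS-UCD2.0 matched 30 of the 33 members looked up and were used for gene order only. Sequences and gene lengths were not used here. Floors cover counting error only, as the libraries carry no molecular identifiers.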

Additional observations from a re-analysis of the deposited data

Results flagged for a closer look

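Among 82 groups of 5 animals in which a described serpin had a mean of at least 10 CPM, 7 (8.54%) held 1 sample whose gap to the rest of its group, relative to the group's range, passed Dixon's critical value of 0.71. For normally distributed values chance gives about 5%. The ratio was taken on CPM without a log, so this rate need not hold here. All 7 samples were high. The fat library labelled bull 5, which carries few reads on Y-linked genes, gave 28.1 CPM of SERPINA5 (10.6 to 13.5 CPM in the other bulls) and 403 CPM of SERPINB6 (136 to 150.1 CPM). The pituitary gland of bull 5 had 359 CPM of SERPINE2 (104 to 167 CPM in the other bulls), and its fibroblast marker sum of 981 CPM and leukocyte sum of 169 CPM were the highest of the 10 pituitary glands. In liver, bull 1 had 562 CPM of SERPINA3-8 (257.5 to 302 CPM in the other bulls) and bull 2 had 39.4 CPM of SERPINI2 (0 to 7.15 CPM). Cow 3 had 30.6 CPM of SERPINE2 in fat (15.0 to 17.2 CPM in the other cows), and cow 5 had 86.8 CPM of SERPING1 in pituitary gland (58.8 to 66.8 CPM).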

How the results depend on the processing

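The number of serpins leading in each tissue stayed within 1.5 times under DESeq2, RLE factors, library sizes alone, filterByExpr, a least fold of 2, the animal as a block and each animal or doubted library left out. Library sizes alone ended the lead of SERPINF1 in liver. The serpins called for sex changed more easily, from 1 to 0 in pituitary gland with the quasi-likelihood test and from 0 to 1 over the 4 tissues with library sizes alone. The calls over all genes went from 98 to 12 and from 222 to 717 with these settings. Leaving out single animals gave 0 to 1 calls in muscle (SERPING1 without cow 4), 1 to 2 in pituitary gland, 0 to 2 over the 4 tissues and 0 to 1 in the interaction. Over all genes, the same fits gave 25 to 553 calls in muscle and 54 to 231 in pituitary gland. They gave 57 to 714 over the 4 tissues and 9 to 197 in the interaction. The log2 fold change of SERPINA3-1 in fat, which was not called, was -0.20 to 2.99 in these fits and turned negative without bull 5. In the fit over the 4 tissues without both doubted libraries, an alternative chosen after seeing the data, 0 serpins were called. The animal as a replicate block changed no call of sex for a serpin, where 0 were called over the 4 tissues and 0 in the interaction, and SERPINB1 and SERPINI2 became leading genes with it, in fat and in pituitary gland. The cause of these changes was not tested. Members with few reads, such as SERPINA12 and SERPINB10 (10 and 3 reads in all), leave a sex difference undecided.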
